A study of Mus musculus with 48 samples.

Results

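RNA-Seq data from 12 libraries of STHdhQ111 cells were compared in 2 pools. One pool held the 3 libraries treated with nicotinamide and the 3 treated with nortriptyline, and the other held the 3 treated with haloperidol and the 3 treated with fingolimod phosphate. These were all the libraries of the 4 compounds, 12 of 48 in the series, and they were taken by their labels. The compounds, comparisons and gene lists were chosen when earlier results of these data were known. STHdhQ111 is a conditionally immortalized line of striatal progenitor cells, the precursors of the neurons most affected in Huntington's disease. It comes from a female knock-in mouse that carries an expanded polyglutamine repeat in both copies of huntingtin, and the series uses it beside STHdhQ7, which has a short repeat. All 12 libraries were collected after 24 h in serum-free medium with compound. The labels give 0.5 nM for nicotinamide, 1 nM for nortriptyline, 0.5 nM for haloperidol and 250 nM for fingolimod phosphate. The cells were a single established line at a single dose of each compound, and the sources used here do not say whether the 3 libraries of a compound came from separate thaws or passages, so the p-values measure the spread between these libraries.

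The 4 compounds act on different proteins. Nicotinamide, a form of vitamin B3, is a precursor of the coenzyme NAD and at high concentrations inhibits the sirtuins and poly(ADP-ribose) polymerases that consume NAD. Nortriptyline is a tricyclic antidepressant that blocks reuptake of noradrenaline and, less strongly, of serotonin. Haloperidol is an antipsychotic that antagonizes dopamine D2 receptors, and fingolimod phosphate is the active form of a multiple sclerosis drug that engages the receptors for sphingosine-1-phosphate.

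Libraries were collected on 3 days at 3 times a day, and a combination of a day and a time is called a slot here. Nicotinamide and nortriptyline were collected at time 3 on day 1, time 1 on day 2 and time 2 on day 3. Haloperidol and fingolimod phosphate were collected at time 2 on day 1, time 3 on day 2 and time 1 on day 3. Each pool thus met every day and every time once per compound, so an additive difference between days or between times was balanced out. The pairing of a day with a time was not. The compounds and the slot set to which they belong cannot be told apart in this comparison. The labels put other compounds in the same slots. Sodium butyrate, loxapine, 4-deoxypyridoxine (DOP) and cysteamine, at 1 mM, 10 µM, 4 mM and 250 µM, shared the slots of nicotinamide and nortriptyline. Meclizine, trichostatin A and pizotifen, at 10 µM, 10 nM and 5 µM, shared those of haloperidol and fingolimod phosphate on all 3 days. Replicate 1 of cyproheptadine and replicate 1 of diacylglycerol kinase inhibitor II were also collected in 1 of these slots, at time 1 on day 3, but the other libraries of both were collected elsewhere, and they were left out of the contrast of other compounds given below. The vehicle controls of both lines were collected in yet another set of slots.

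The values are the authors' normalized abundances per gene on a log2 scale, without read counts, so the depth per library is unknown. Every level and difference below is on that log2 scale. Across the 48 libraries, the summed linear values differed by at most 1.11 times, and correlations across genes among the 12 libraries were 0.9961 to 0.9994. The progenitor label was checked against markers. Vim, an intermediate filament of progenitor and mesenchymal cells, had mean levels of 15.6 and 15.5 in the pools of nicotinamide with nortriptyline and of haloperidol with fingolimod phosphate. Nes, nestin, a filament of neural stem cells, was at 4.46 to 5.22 in 11 of the 12 libraries and at 7.14 in replicate 2 of haloperidol. Of the 21 progenitor and striatal markers, 12 passed the minimum mean of 1 used for all tests, and Ppp1r1b, a marker of mature striatal neurons, was near that minimum at 1.91 and 1.87. Among markers of other cell types, 4 of 6 astrocyte, 3 of 7 oligodendrocyte, 1 of 6 microglial, 3 of 5 endothelial, 2 of 5 neuronal and 4 of 5 mural and fibroblast genes passed the minimum, and the defining genes Gfap, Mog, Aif1, Cdh5 and Rbfox3 did not. The mural and fibroblast list had the highest summed level, 14.69 to 14.97 in the libraries of nicotinamide and nortriptyline and 14.61 to 14.91 in the others.

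Replicate 2 of haloperidol stood apart. In that library 27 genes lay more than 1 above the mean of the other 2 haloperidol libraries, while no other of the 12 libraries had more than 12 such genes. Acta2, smooth muscle actin, was at 8.54 there and at 4.13 to 5.42 in the other 11 libraries. Crabp1, a binding protein for retinoic acid, was at 6.76 against 3.41 to 4.05, Tnc, the matrix protein tenascin C, at 9.55 against 7.36 to 7.90, and Sox2, a neural stem cell factor, at 5.92 against 4.70 to 5.12. These genes were chosen after their values were seen, and 0 of Acta2, Crabp1, Tnc, Sox2 and Nes was called between the pools. The count between the pools and the counts of the lists are therefore given with and without this library, and likewise for replicate 2 of nicotinamide and, where it changed a count by over 1.5 times, replicate 3 of fingolimod phosphate.

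Nicotinamide and nortriptyline libraries differed from haloperidol and fingolimod phosphate libraries in 1464 of 13409 genes tested, 10.9% of them. Differential expression was called where the adjusted p was under 0.05 (limma, Benjamini-Hochberg adjustment over all genes tested), from 1 model of all 48 libraries that held the conditions and the collection days. Of the called genes, 599 were higher (4.47% of genes tested) and 865 were lower (6.45%) with nicotinamide and nortriptyline. Without correction, 3753 genes had p under 0.05. The differences were small. The median size among called genes was 0.176, 21 called genes differed by more than 0.5 and 4 by more than 1. In 256 genes (1.91%) all 6 nicotinamide and nortriptyline libraries lay above all 6 of the others, and in 467 genes (3.48%) they lay below them. The number called depended on single libraries. It was 509 without replicate 2 of nicotinamide, 607 without replicate 2 of haloperidol, 638 without replicate 2 and 713 without replicate 1 of fingolimod phosphate, 780 without replicate 1 of nortriptyline, and 1018 to 1817 when any of the other 7 was left out, with 1817 without replicate 3 of fingolimod phosphate. Leaving out a whole compound moved the count further for some. It was 5 without nicotinamide, 144 without haloperidol, 1201 without nortriptyline and 1189 without fingolimod phosphate. By whole compounds, the count thus rested on nicotinamide and haloperidol more than on nortriptyline and fingolimod phosphate. By single libraries it did not divide in this way. Leaving out only replicate 1 or 2 of fingolimod phosphate, or replicate 1 of nortriptyline, lowered the count more than leaving out that whole compound.

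The calls were divided unevenly among the 4 pairs of compounds across the slot sets. Nicotinamide minus haloperidol gave 1068 called genes (7.96% of 13409), 373 higher (2.78%) and 695 lower (5.18%). Nicotinamide minus fingolimod phosphate gave 278 (2.07%), 55 higher (0.41%) and 223 lower (1.66%). Nortriptyline minus haloperidol gave 131 (0.977%), 47 higher (0.351%) and 84 lower (0.626%). Nortriptyline minus fingolimod phosphate gave 0 called genes with limma, with 1214 at an unadjusted p under 0.05. Within slot sets, nicotinamide minus nortriptyline gave 0 called genes with 402 at an unadjusted p under 0.05, and haloperidol minus fingolimod phosphate gave 0 with 1033. Missing the threshold does not show that the compounds of a slot set acted alike, and whether the numbers called in the pairs differ from each other was not tested. The pair counts rested on single libraries: nicotinamide minus haloperidol fell to 48 without replicate 2 of haloperidol, nicotinamide minus fingolimod phosphate to 0 without replicate 2 of nicotinamide, and nortriptyline minus haloperidol to 0 without replicate 1 of nortriptyline.

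**Figure D1:**
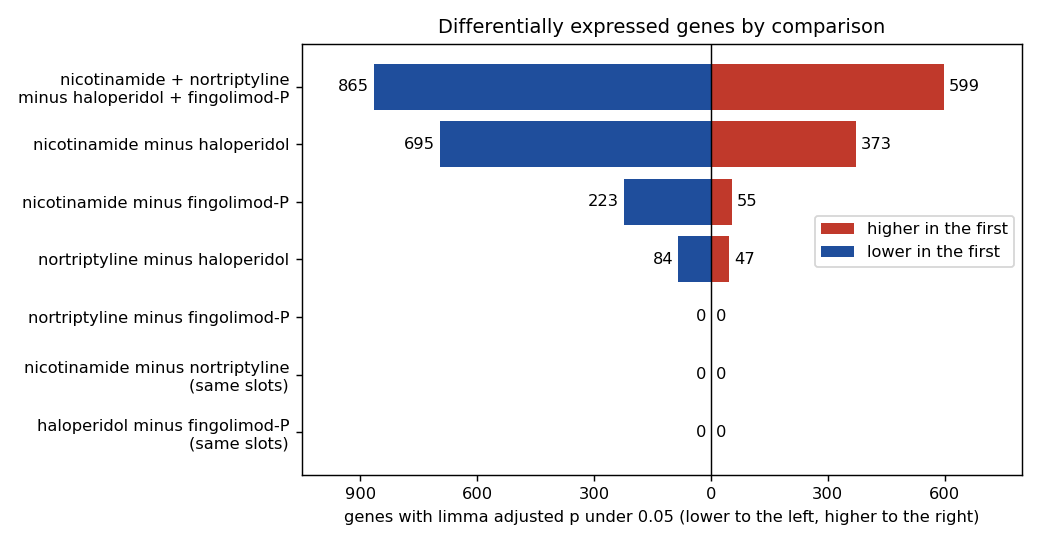
Bars give the number of genes called by limma at an adjusted p under 0.05 in each comparison, to the right for genes higher in the first-named compounds and to the left for genes lower in them (fingolimod-P, fingolimod phosphate). The pooled comparison has 599 higher and 865 lower, nicotinamide minus haloperidol has the most calls of the 6 pairs, and the 2 pairs within a slot set have none.

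Pairs that share no library can be set side by side. Across 13409 genes, the differences of nicotinamide minus haloperidol and of nortriptyline minus fingolimod phosphate had a Pearson correlation of 0.58. For nicotinamide minus fingolimod phosphate and nortriptyline minus haloperidol the correlation was 0.533. For the 2 contrasts within slot sets, nicotinamide minus nortriptyline and haloperidol minus fingolimod phosphate, it was 0.007. These are descriptions across genes, which are not independent, and the libraries of the first pairs share slots and days. When the variation among the 12 libraries was divided over all genes tested, the pool took 29.7% of the sum of squares with 1 degree of freedom, the compound within a pool 17.9% with 2, and the collection day 10.5% with 2. The combination of pool and day took 14.2% with 2, and the combination of compound and day, which is the spread left among single libraries, took 27.8% with 4. For the median gene, the mean square was 0.0117 for the pool, 0.00526 for the compound within a pool and 0.00441 for what was left.

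The pool difference could be computed on each day, with 2 libraries against 2. Across genes, the differences on day 1 and day 2 had a correlation of 0.693, those on days 1 and 3 of 0.403, and those on days 2 and 3 of 0.471. The genes called higher had a median difference of 0.186 on day 1, 0.256 on day 2 and 0.139 on day 3, and the genes called lower had medians of -0.148, -0.225 and -0.124. Since the genes were called on the same values, this gives the sizes only. A test of whether the pool difference itself changed between days (an F test in limma over the 12 libraries) called 0 of 13409 genes, with 667 at an unadjusted p under 0.05 and a smallest adjusted p of 0.213. Without replicate 2 of fingolimod phosphate that test called 99 genes. In the model of all libraries, residuals of libraries collected in the same slot had a mean correlation of -0.0856, against 0.00977 for libraries of other slots. The condition terms of that model take up what a slot set shares, and the day terms lower the correlation of residuals within a day. These values thus do not show whether libraries of a slot moved together.

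Genes induced by interferon stood higher with nicotinamide and nortriptyline. Interferons are secreted antiviral signals, and their receptors switch on a common set of genes through a shared transcription factor complex, which binds a DNA element of paired GAAA repeats. Of 31 such genes tested, 7 rose and 0 fell, beside 4.47% called higher and 6.45% lower over all genes tested, and the differences of all 31 were above 0, as were those of 7124 of all 13409. Their median difference was 0.288 (0.007 over all genes tested). The 7 were Cxcl10, Isg15, Psmb9, Ifitm3, Psmb8, Ifi35 and Tap1. Without replicate 2 of haloperidol 3 of the 31 were called, without replicate 2 of nicotinamide 2, and without replicate 3 of fingolimod phosphate 11, each time with 0 lower. In the other compounds of the slots, described below, 29 of the 31 were called higher and 0 lower, beside 19.3% called higher over all genes tested in that contrast. The list lost most of its calls when a trend with transcript length and GC content was removed from each library, which left 1 of 31 higher and a median of 0.242.

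The windows before the starts of Isg15 and Cxcl10 are shown because these were the called members with the largest rises and because they hold the paired repeat. The letters are 250 bases before the annotated start, 5′ to 3′ on the strand of the gene, from RefSeq on GRCm38.p6, and capitals mark matches to GAAA, any 2 bases and GAAA again, searched on both strands.
Isg15, chr4:156200819-156201068, minus strand: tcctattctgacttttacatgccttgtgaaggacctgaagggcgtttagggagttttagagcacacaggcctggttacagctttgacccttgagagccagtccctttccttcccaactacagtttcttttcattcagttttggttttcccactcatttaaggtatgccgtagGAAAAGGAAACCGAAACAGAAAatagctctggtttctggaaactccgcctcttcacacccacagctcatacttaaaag
Cxcl10, chr5:92348890-92349139, minus strand: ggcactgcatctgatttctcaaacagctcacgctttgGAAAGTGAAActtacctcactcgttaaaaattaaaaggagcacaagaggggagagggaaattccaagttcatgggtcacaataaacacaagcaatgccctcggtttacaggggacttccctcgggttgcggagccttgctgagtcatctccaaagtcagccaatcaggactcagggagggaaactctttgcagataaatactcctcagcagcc
Isg15 holds 3 overlapping matches, from base 173 to base 194 of the window, and Cxcl10 holds 1, from base 38 to base 47. Of the 31 interferon-stimulated genes, 23 had a window in the table used, and 9 held a match in at least 1 window. Of 32851 single windows of that length, 2.98% held a match, which is a share of windows and not of genes. Among the 7 called genes, 2 held a match. A match is a description of the letters and not a bound site.

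Isg15 (ENSMUSG00000035692, chromosome 4 from 156199424 to 156200818 on the minus strand of GRCm38) encodes a ubiquitin-like protein that is joined to other proteins during the antiviral response. Its values ran from 10.64 through a median of 10.97 to 11.07 with nicotinamide and nortriptyline, and from 10.07 through 10.38 to 10.94 with haloperidol and fingolimod phosphate. The pools overlapped only through replicate 3 of fingolimod phosphate. The difference was 0.46 (standard error 0.157, adjusted p = 0.0497, limma), near the threshold. Cxcl10, a chemokine that draws T cells, had values from 10.00 through 10.21 to 10.47 and from 9.44 through 9.78 to 10.14, with replicate 3 of fingolimod phosphate again highest in its pool. Its difference was 0.47 (standard error 0.148, adjusted p = 0.0344, limma). Psmb9, a subunit of the immunoproteasome that cuts peptides for presentation on MHC class I, ran from 6.54 to 7.0 and from 5.96 to 6.82, a difference of 0.40 (standard error 0.113, adjusted p = 0.0196, limma). Tap1, which carries such peptides into the endoplasmic reticulum, differed by 0.28 (adjusted p = 0.0136, limma), and Psmb8, another immunoproteasome subunit, by 0.30 (adjusted p = 0.0177, limma).

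Values of the interferon genes are given next for the 2 compounds of the haloperidol and fingolimod phosphate pool. Psmb9 was at 6.18, 6.21 and 5.96 with haloperidol and at 6.22, 6.74 and 6.82 with fingolimod phosphate. Isg15 was at 10.41, 10.07 and 10.35 with haloperidol and at 10.30, 10.54 and 10.94 with fingolimod phosphate. For Psmb9 the haloperidol libraries all lay below the fingolimod phosphate libraries, and for Isg15 they lay below 2 of the 3, but haloperidol minus fingolimod phosphate had 0 called genes. Against the vehicle libraries, which all 4 compounds share, the list had a median of 0.392 with nicotinamide, 0.424 with nortriptyline, 0 with haloperidol and 0.289 with fingolimod phosphate. Over all libraries, the summed level of the list ran from 15.50 to 15.76 in the nicotinamide and nortriptyline pool and from 15.24 to 15.76 in the other.

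**Figure D2:**
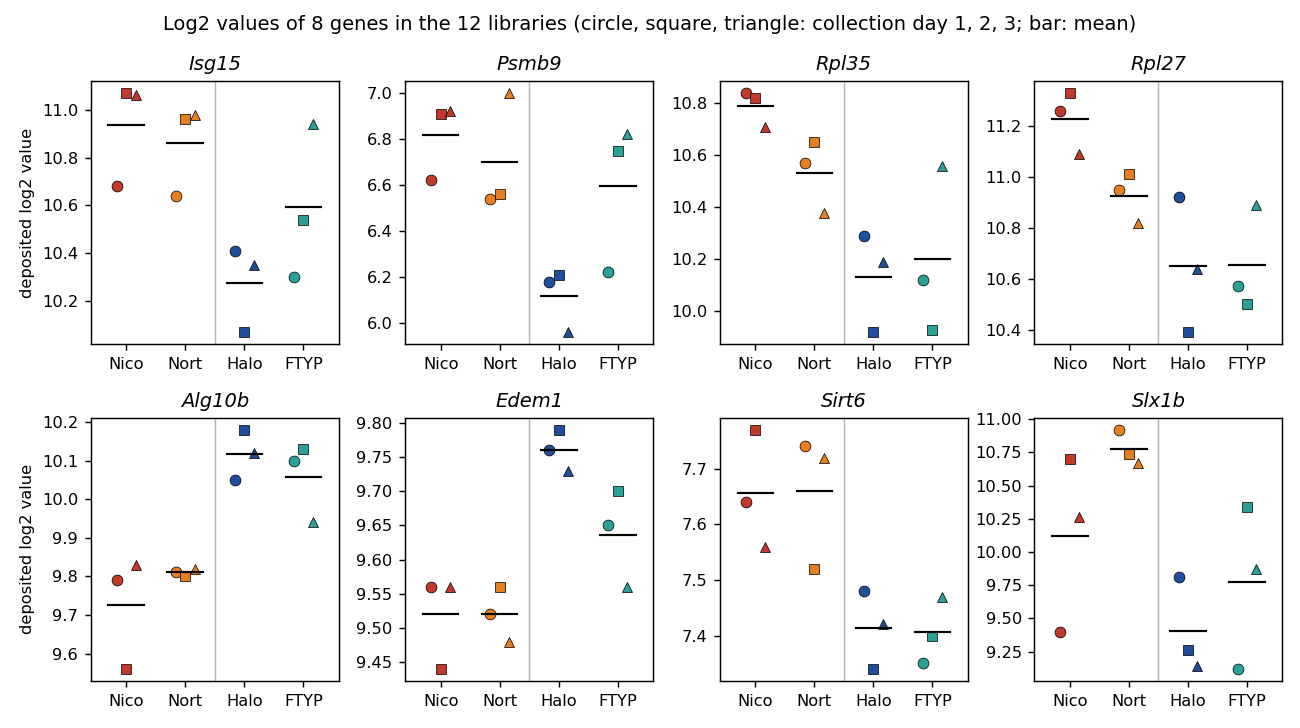
Each point is a library, with its deposited log2 value on the vertical axis, symbols for the collection day and a bar at the mean of 3 libraries; Nico, nicotinamide; Nort, nortriptyline; Halo, haloperidol; FTYP, fingolimod phosphate. For Isg15, Psmb9, Rpl35 and Rpl27 replicate 3 of fingolimod phosphate (triangle) lies among the nicotinamide and nortriptyline libraries, for Alg10b and Sirt6 the pools do not overlap, for Edem1 they meet at that library, and for Slx1b they overlap widely.

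Genes of the cytosolic ribosome were higher with nicotinamide and nortriptyline. Of 59 ribosomal protein genes tested, 25 rose and 0 fell, beside 4.47% called higher over all genes tested. All 59 differences were above 0, and their median was 0.179. Rpl35, a protein of the large subunit at the exit of the peptide tunnel, ran from 10.38 through 10.68 to 10.84 with nicotinamide and nortriptyline and from 9.92 through 10.16 to 10.56 with the other compounds. Its difference was 0.49 (standard error 0.119, adjusted p = 0.00744, limma). Rpl27 ran from 10.82 to 11.33 and from 10.39 to 10.92, a difference of 0.43 (standard error 0.098, adjusted p = 0.00571, limma). Rps7, of the small subunit, differed by 0.51 (standard error 0.136, adjusted p = 0.0153, limma) and Rpl12 by 0.40 (standard error 0.103, adjusted p = 0.0128, limma). In all 4 genes a nicotinamide library stood highest, and the pools overlapped through replicate 3 of fingolimod phosphate and, except for Rpl35, replicate 1 of haloperidol. The count was 5 of 59 without replicate 2 of haloperidol, 8 without replicate 2 of nicotinamide and 38 without replicate 3 of fingolimod phosphate, with 0 lower in each. Against the shared vehicle libraries, the list's median was 0.202 with nicotinamide, 0.099 with nortriptyline, -0.052 with haloperidol and 0.002 with fingolimod phosphate. Many ribosomal protein genes have processed pseudogenes, between which short reads can be divided.

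Nuclear genes of the respiratory chain, which feeds electrons to oxygen and drives ATP synthesis, moved less. Of 68 tested, 9 rose and 1 fell, beside 4.47% called higher and 6.45% lower over all genes tested, and the median was 0.128. The number called higher was 1 without replicate 2 of haloperidol, 2 without replicate 2 of nicotinamide and 20 without replicate 3 of fingolimod phosphate. Atp5g2, a ring subunit of ATP synthase, rose by 0.38 (standard error 0.098, adjusted p = 0.0126, limma), Ndufa3 of complex I by 0.25 (standard error 0.058, adjusted p = 0.00618, limma) and Ndufa6 by 0.20 (standard error 0.064, adjusted p = 0.0355, limma). Among the 13 genes encoded by the mitochondrial genome, 0 were called and the median was -0.104. ATP6 had the largest of these differences, -0.27 (standard error 0.183, adjusted p = 0.348, limma). The ribosomal and respiratory genes have short transcripts, with median lengths of 1106 and 1240.5 bases against 3413 over all genes tested. After the length and GC trend was removed, 7 of 59 ribosomal genes were higher with a median of 0.066, and 1 of 68 respiratory genes was higher and 1 lower with a median of 0.011.

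The pool difference varied with transcript length. The 9932 genes that reached a mean level of 6 and had an annotated length were divided into 5 classes of about equal size by transcript length. The class of shortest transcripts (204 to 2086 bases) had a median difference of 0.083, with 13% of its genes called higher and 0.302% lower. The class of longest transcripts (5477 bases and over) had a median of -0.085, with 0.755% higher and 23.2% lower, and the classes between were in order. The Spearman correlation across these genes was -0.559 with length and 0.423 with GC content. Genes called higher had a median length of 2063 bases and genes called lower one of 5725. The median of the shortest class minus that of the longest, as the deviation of a library from the mean of all libraries, was -0.002 to 0.193 in the nicotinamide and nortriptyline libraries and -0.188 to 0.072 in the others, and the highest of the latter was again replicate 3 of fingolimod phosphate. The other compounds of the slots had a weaker gradient in the same direction, with medians of 0.055 and -0.053 in the shortest and longest classes and a Spearman correlation of -0.309. When the trend was removed from each library, an alternative chosen after seeing the data, 641 genes were called between the pools, 261 higher and 380 lower. The trend was removed from the 9932 genes only. The other genes tested kept their values in that fit, and some of them are among the 641. Of these, 496 were also among the 1464, which is 77.4% of the smaller set and 33.9% of the larger. What the gradient comes from was not tested.

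**Figure D3:**
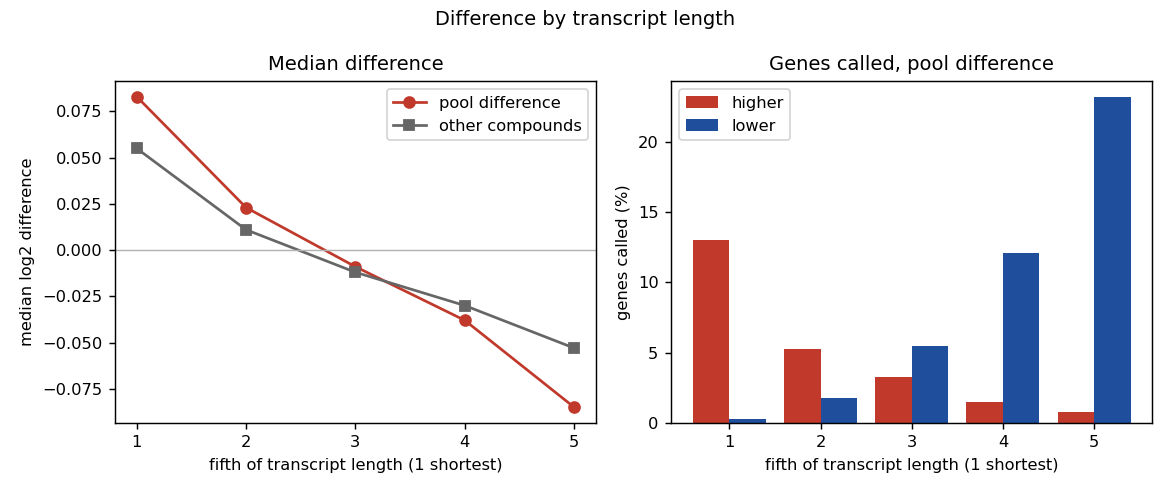
The left panel plots the median log2 difference (vertical) in 5 classes of transcript length (horizontal, shortest first) for the pool difference and for the other compounds of the slots. The right panel gives the percent of genes in each class called higher or lower between the pools; the shortest class has 13% higher and the longest 23.2% lower.

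In most of the genes with the largest falls the libraries of the pools did not overlap. This was in part fixed by choosing the genes on the same libraries. Among all 865 genes called lower, the pools did not overlap in 376 (43.5%), beside 3.48% of all genes tested. The 12 largest rises and the 12 largest falls were taken from called genes that reached a mean level of 6 and kept 1 sign in all 4 compound pairs and on all 3 days. Alg10b, a glucosyltransferase that completes the sugar donor for N-glycosylation, lies on chromosome 15 from 90224311 to 90233471 on the plus strand of GRCm38. Its values were 9.56 through a median of 9.80 to 9.83 with nicotinamide and nortriptyline and 9.94 through 10.11 to 10.18 with haloperidol and fingolimod phosphate. The pools did not overlap, and the difference was -0.32 (standard error 0.05, adjusted p = 0.000557, limma). Alg10b was also lower in the other compounds of the same slots, by -0.38 (adjusted p = 1.46e-09, limma). Zfp704, a zinc finger transcription factor on chromosome 3 from 9427020 to 9610085, ran from 7.10 through 7.16 to 7.34 and from 7.34 through 7.53 to 7.63, so that the pools met at 2 decimals. It differed by -0.32 (standard error 0.055, adjusted p = 0.000671, limma). Raph1, lamellipodin, which directs actin growth at the leading edge, ran from 8.32 to 8.48 and from 8.59 to 8.80, a difference of -0.27 (standard error 0.049, adjusted p = 0.00123, limma). Lmbrd2, a membrane protein, fell by 0.37, Pdpr, a regulator of pyruvate dehydrogenase phosphatase, by 0.35 and Lnpep, the insulin-regulated aminopeptidase, by 0.34.

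The remaining large falls included carriers and trafficking proteins. Atp7a, the copper pump that is mutated in Menkes disease, ran from 7.02 through 7.33 to 7.42 with nicotinamide and nortriptyline and from 7.43 through 7.54 to 7.74 with the other compounds, a difference of -0.29 (standard error 0.063, adjusted p = 0.00394, limma). Atp13a3, a P5-type ATPase linked to polyamine transport, fell by 0.27 (standard error 0.049, adjusted p = 0.00126, limma), Exoc6 of the exocyst by 0.27 and Vps13c, a lipid transfer protein at membrane contacts, by 0.28. Ccne2, cyclin E2, which drives entry into S phase, had values of 8.51 to 8.71 and 8.82 to 9.06, with a difference of -0.31 (standard error 0.069, adjusted p = 0.00454, limma). Of the falls named here other than those of Ccne2 and Lnpep, each was also called lower in the other compounds of the slots. For Ccne2 that difference was -0.11 (adjusted p = 0.0926, limma) and for Lnpep -0.13 (adjusted p = 0.0706, limma). Gm8290, a processed pseudogene, had the greatest fall of all genes called. It ran from 4.36 to 7.21 in the nicotinamide and nortriptyline libraries and from 6.07 to 10.66 in the others, a difference of -3.15 (standard error 0.801, adjusted p = 0.0109, limma). Its reads may be shared with the gene it copies, so its level is uncertain.

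The largest rises were less clean. In Slx1b (a nuclease subunit for DNA repair), Pecam1 (an adhesion molecule of endothelium) and Olfr620 (an odorant receptor), the highest library was replicate 1 of nortriptyline and the lowest replicate 1 of fingolimod phosphate, and replicate 2 of fingolimod phosphate lay above replicate 1 of nicotinamide. Pecam1 rose by 0.90 (standard error 0.262, adjusted p = 0.024, limma), Olfr620 by 0.88 (standard error 0.233, adjusted p = 0.0136, limma) and Slx1b by 0.86 (standard error 0.247, adjusted p = 0.0226, limma). Slx1b was at 9.40, 10.70 and 10.26 with nicotinamide, at 10.92, 10.74 and 10.67 with nortriptyline, at 9.81, 9.26 and 9.14 with haloperidol and at 9.12, 10.34 and 9.87 with fingolimod phosphate, so that the pools overlapped widely. In the other compounds of the slots, Pecam1 by 0.14 (adjusted p = 0.629, limma), Olfr620 by 0.26 (adjusted p = 0.25, limma) and Slx1b by 0.14 (adjusted p = 0.589, limma). Cdh5, the defining cadherin of endothelium, did not reach the minimum mean. Slx1b is overlapped on the other strand by Bola2. The retrotransposed ribosomal copy Rps27rt, which rose by 0.67 (adjusted p = 0.00571, limma), has near-identical relatives. Gm5621 rose by 0.66 (adjusted p = 0.0438, limma).

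Ly6a, the stem cell antigen Sca-1 and an interferon-responsive gene, rose by 0.59 (standard error 0.156, adjusted p = 0.0142, limma). Its values ran from 7.87 through 8.07 to 8.44 with nicotinamide and nortriptyline and from 7.26 through 7.42 to 8.24 with the other compounds, where replicate 3 of fingolimod phosphate stood apart from the other 5, which reached 7.57. The same gene differed by 0.85 (adjusted p = 6.35e-07, limma) in the other compounds of the slots. Outside the rule for named genes, and chosen after their values were seen, Rn7sk, an RNA that restrains transcription elongation, and Rmrp, the RNA of RNase MRP, were also called higher. These RNAs carry no poly(A) tail, while the libraries were made from polyadenylated RNA. Rn7sk was at 10.08, 9.09 and 9.08 with nicotinamide and at 9.38, 9.51 and 6.95 with nortriptyline. It was at 7.52, 6.94 and 8.48 with haloperidol and at 7.57, 7.70 and 9.02 with fingolimod phosphate. The difference of Rn7sk was 1.14 (standard error 0.387, adjusted p = 0.0497, limma) and that of Rmrp 0.97 (standard error 0.322, adjusted p = 0.0441, limma). Rpph1, looked up with them, had 0.70 (adjusted p = 0.179, limma) and was not called. Lars2, also looked up, was called higher by 0.94 (standard error 0.316, adjusted p = 0.0483, limma). Its differences were 1.78 on day 1, 1.59 on day 2 and -0.55 on day 3. By day, the difference of Rn7sk was 2.18, 1.98 and -0.74 and that of Rmrp 1.89, 1.56 and -0.53, so that both were lower on day 3. For both, replicate 3 of nortriptyline was low, and replicate 3 of haloperidol and of fingolimod phosphate was the highest of its compound. The test of whether these differences changed between days had unadjusted p of 0.000178 for Rn7sk and 0.000262 for Rmrp, with an adjusted p of 0.493 for both (limma).

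Genes of lipid synthesis and of protein folding in the endoplasmic reticulum (ER) had called members in the lower direction only. Of 25 genes of sterol synthesis and uptake, 0 rose and 4 fell, with a list median of -0.085. Stard4, a sterol carrier, fell by 0.20 (standard error 0.046, adjusted p = 0.00552, limma), Hsd17b7 by 0.21 and Sqle by 0.16. Of 13 genes of fatty acid synthesis, 2 fell, Acaca by 0.16 and Me1 by 0.12, with 0 higher and a median of -0.109. Of 19 ER chaperones and folding factors, 4 fell and 0 rose, with a median of -0.011. These 4 were Edem1, which sends misfolded glycoproteins to degradation, at -0.18 (standard error 0.031, adjusted p = 0.000906, limma), Sel1l of the same pathway at -0.20, Dnajc3 at -0.19 and the lectin chaperone Canx at -0.16. Over all genes tested, 6.45% were called lower. After the length and GC trend was removed, 0 of the sterol genes were called lower, with a list median of -0.093, which was no smaller in size than before. The numbers called lower were then 4 for the ER list (median -0.055) and 2 for fatty acid synthesis (median -0.073). Without replicate 2 of haloperidol, 1 sterol gene, 1 gene of fatty acid synthesis and 4 ER genes were called lower, and without replicate 2 of nicotinamide 1, 0 and 4.

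Lists of the lysosome, autophagy and the cell cycle had calls in the lower direction too, again beside 6.45% called lower over all genes tested. In the autophagy and clock lists the share called lower was near that figure. Of 26 lysosomal genes, 5 fell and 0 rose (median -0.065), among them Asah1, acid ceramidase, by 0.22 (standard error 0.048, adjusted p = 0.00365, limma) and Lamp2, a membrane protein of the lysosome, by 0.16. Of 25 autophagy genes, 2 fell, the kinase Ulk2 by 0.20 (standard error 0.041, adjusted p = 0.00328, limma) and its partner Rb1cc1 by 0.18, and 0 rose (median -0.014). Of 34 genes of DNA replication and mitosis, 4 fell and 0 rose (median -0.048). They were Ccne2, the spindle motor Kif11 by 0.20, the checkpoint kinase Bub1 by 0.19 and the ribonucleotide reductase subunit Rrm1 by 0.12. Clock, the core circadian activator, fell by 0.23 (standard error 0.046, adjusted p = 0.00279, limma) and was the only one called of 18 clock genes. Txnip, a glucose-responsive gene, had a difference of -0.19 (adjusted p = 0.101, limma), and 0 of 5 genes of its list were called. Without replicate 2 of haloperidol, and likewise without replicate 2 of nicotinamide, 1 gene each of the lysosomal, autophagy, replication and clock lists was called lower. Without replicate 3 of fingolimod phosphate, 8 replication genes were. After the length and GC trend was removed, 8 lysosomal genes were called lower (median -0.091), with 1 of the autophagy list, 2 of the replication list and 0 of the clock list.

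Inflammatory, matrix and immediate-early genes had calls mostly in the higher direction, beside 4.47% called higher over all genes tested, and in the collagens, the other matrix proteins, the immediate-early genes and the ATF4 targets the share called higher was near that figure. Of 14 NF-kB targets and chemokines, 3 rose and 0 fell (median 0.084). Nfkbia, the inhibitor that NF-kB itself induces, rose by 0.18 (standard error 0.045, adjusted p = 0.0101, limma), Relb by 0.15 and Cxcl1 by 0.29. Of 34 collagens, 2 rose and 1 fell (median 0.073). Col3a1, a fibrillar collagen, had values of 12.72 to 12.97 with nicotinamide and nortriptyline and 12.38 to 12.67 with haloperidol and fingolimod phosphate, so that the pools did not overlap, with a difference of 0.32 (standard error 0.091, adjusted p = 0.0196, limma). Col15a1 rose by 0.17 and Col4a5 fell by 0.19. Of 25 other matrix proteins, 2 rose and 1 fell (median 0.009), namely Dcn by 0.33 and Igfbp7 by 0.25, against a fall of Fbn1 by 0.21. Tpm1, a tropomyosin, rose by 0.15 (standard error 0.034, adjusted p = 0.0058, limma), and Flna, filamin A, fell by 0.14. Of 29 immediate-early genes and feedback regulators of ERK, 1 rose, Fosl1 by 0.30, and 0 fell (median 0.091). Of 26 targets of ATF4, the factor of the amino acid response, 1 rose, Ddit4 by 0.17, and 0 fell (median 0.043). Without replicate 2 of haloperidol, the numbers called higher were 1 for NF-kB targets, 0 for collagens, 1 for other matrix proteins, and 0 for immediate-early genes and ATF4 targets. They were 1, 2, 1, 0 and 0 without replicate 2 of nicotinamide, in the same order, and without replicate 3 of fingolimod phosphate 4 collagens and 2 ATF4 targets were called higher.

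Genes tied to the compounds themselves were also listed. Of 16 genes tested among NAD-consuming and NAD-producing enzymes, 3 rose and 1 fell (median 0.052), beside 10.9% called over all genes tested, and 2 were called higher and 1 lower without replicate 2 of haloperidol and likewise without replicate 2 of nicotinamide. Sirt6 (ENSMUSG00000034748, chromosome 10 from 81621785 to 81627797, minus strand) is a nuclear sirtuin that deacetylates histones. It was at 7.52 through 7.68 to 7.77 with nicotinamide and nortriptyline and at 7.34 through 7.41 to 7.48 with the other compounds. The pools did not overlap, and the difference was 0.25 (standard error 0.048, adjusted p = 0.00191, limma). Its difference was 0.24 for nicotinamide minus haloperidol and 0.25 for nicotinamide minus fingolimod phosphate. It was 0.25 for nortriptyline minus haloperidol and 0.26 for nortriptyline minus fingolimod phosphate, and whether the pairs differed was not tested. In the other compounds of the slots it was 0.03 (adjusted p = 0.519, limma). Sirt3, the main mitochondrial sirtuin, rose by 0.16 (standard error 0.042, adjusted p = 0.0107, limma) without overlap of the pools, and it had -0.02 (adjusted p = 0.611, limma) in the other compounds. Sirt1 fell by 0.19 (standard error 0.041, adjusted p = 0.00389, limma). Naprt, which makes NAD from nicotinic acid, rose by 0.16 with overlapping pools. Nampt, which makes NAD from nicotinamide, had a difference of 0.04 (standard error 0.082, adjusted p = 0.772, limma).

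For the other compounds, 5 of 13 nortriptyline-related genes passed the minimum mean. Slc6a4, the serotonin transporter, was called higher by 0.11 at levels of 1.96 to 2.21, close to the minimum, and Slc6a2, the noradrenaline transporter, did not pass it. Of 9 haloperidol-related genes 2 passed and 0 were called, and Drd2 did not pass. Of 11 fingolimod-related genes 8 passed, and 1 was called. With so few genes tested, single calls do not set these lists apart from the 10.9% called over all genes tested. Sgpl1, the lyase that degrades sphingosine-1-phosphate, had medians of 11.92 with nicotinamide and nortriptyline and 12.06 with haloperidol and fingolimod phosphate, where the pools did not overlap, with a difference of -0.14 (standard error 0.04, adjusted p = 0.0196, limma). It was -0.17 for nicotinamide minus fingolimod phosphate and -0.18 for nicotinamide minus haloperidol. The receptor S1pr2 had a difference of -0.05 (adjusted p = 0.398, limma) and S1pr1 one of 0.01 (adjusted p = 0.944, limma). Neither Slc6a4 nor Sgpl1 stayed called when replicate 2 of haloperidol or replicate 2 of nicotinamide was left out. Htt, the gene of the disease model, ran from 7.64 through 7.75 to 7.93 and from 7.75 through 7.93 to 8.14 and was lower by -0.18 (standard error 0.054, adjusted p = 0.0275, limma). After the length and GC trend was removed, Htt had a difference of -0.10 (adjusted p = 0.226, limma).

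The other compounds of the same slots share no library with the 4 compounds, and the same contrast of slot sets was computed from them. Sodium butyrate, loxapine, DOP and cysteamine together differed from meclizine, trichostatin A and pizotifen in 5202 of 13409 genes (38.8%), with 2591 higher (19.3%) and 2611 lower (19.5%). Of the 599 genes called higher with nicotinamide and nortriptyline, 552 (92.2%) had the same sign there and 390 were called with it, against 6 called with the opposite sign. Of the 865 called lower, 815 (94.2%) had the same sign, 585 were called with it and 3 with the opposite sign. Over all genes tested, 70.3% had the same sign. Across 13409 genes the correlation of the 2 sets of differences was 0.571, and after the length and GC trend was removed from the 9932 genes in the length classes it was 0.522, against 0.593 in those genes before. Among the 641 genes called after removal, 585 (91.3%) had the same sign in the other compounds, against 67.4% of the 9932 genes in the length classes. The 2 shares cover unlike sets, since the 641 were called over all genes tested and include genes outside the length classes.

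The other compounds have effects of their own, at far higher doses for most of them, and 2 of the 7 inhibit histone deacetylases. Without sodium butyrate and trichostatin A, an alternative chosen after seeing the data, 4360 genes were called in that contrast and 1291 of the 1464 genes (88.2%) kept the sign, against 66.3% of all genes tested, with a correlation of 0.452. In the 12 single pairs of these compounds, the share of the 1464 genes with the same sign ran from 63.9% for loxapine minus trichostatin A to 90.8% for sodium butyrate minus trichostatin A. The corresponding shares over all genes tested were 56.1% and 68.9%. Loxapine minus pizotifen had 14 called genes, and in it 89.9% of the 1464 genes had the same sign, with medians of 0.086 and -0.081 in the genes called higher and lower between the pools. These pairs share libraries with each other and are not separate evidence.

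Library by library, the 599 genes called higher stood above the vehicle mean by a median of 0.132 to 0.244 in the nicotinamide and nortriptyline libraries and at -0.083 to 0.07 in the haloperidol and fingolimod phosphate libraries. The range between these was fixed by the choice of the genes. The 12 libraries of other compounds in the slots of nicotinamide and nortriptyline, which had no part in that choice other than in the spread and the day terms, had medians of 0.03 to 0.186. The 9 libraries of meclizine, trichostatin A and pizotifen in the slots of haloperidol and fingolimod phosphate had medians of -0.075 to 0.015, and the 2 left out of that contrast, replicate 1 of cyproheptadine and of diacylglycerol kinase inhibitor II, had -0.021 and -0.017. All 12 lay above all 9. Loxapine had the lowest of the 12 (0.03, 0.046 and 0.071) and sodium butyrate the highest. In the 865 genes called lower, sodium butyrate had -0.179 to -0.225, and the 2 sets of other compounds overlapped, since replicate 1 of trichostatin A was at -0.094 and replicates 1 and 3 of loxapine at -0.085 and -0.081. Replicate 3 of fingolimod phosphate, at 0.07, lay above every other library of its slot set in the genes called higher. Outside both slot sets, replicate 2 of selisistat, collected with the vehicle, reached 0.141 in the genes called higher, and the other 2 libraries of selisistat had 0.053 and 0.001.

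**Figure D4:**
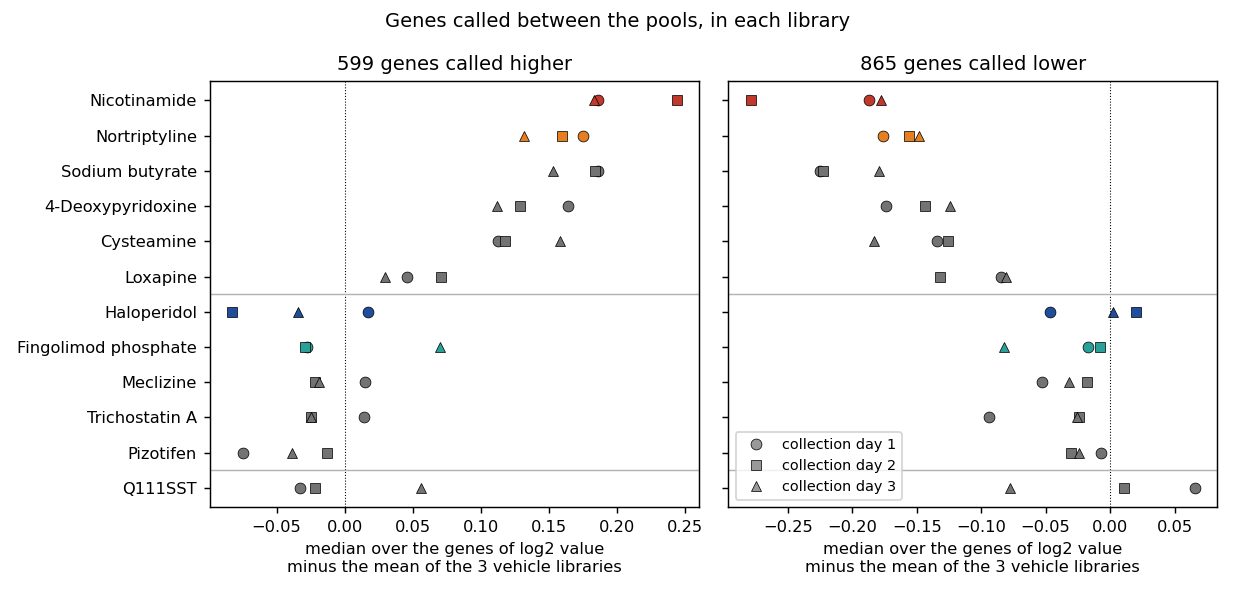
Each point is a library, placed at the median over the genes called higher (left panel) or lower (right panel) of its log2 value minus the mean of the 3 STHdhQ111 vehicle libraries; rows are compounds, with the slots of nicotinamide and nortriptyline above the first grey line and those of haloperidol and fingolimod phosphate between the lines. The other compounds of the upper slots lie at 0.03 to 0.186 in the left panel and those of the lower slots at -0.075 to 0.015.

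The gene lists moved in like ways in the 2 contrasts, with exceptions. Interferon-stimulated genes had medians of 0.288 in the 4 compounds and 0.437 in the others, ribosomal protein genes 0.179 and 0.148, with 35 of 59 called higher in the others, and respiratory chain genes 0.128 and 0.1, with 30 of 68 called higher. Sterol genes had -0.085 and -0.147, with 14 of 25 called lower in the others, and lysosomal genes -0.065 and -0.151, with 20 of 26 called lower. ATF4 targets had 0.043 in the 4 compounds and -0.523 in the others, where 23 of 26 were called lower and 1 higher. Genes of DNA replication and mitosis had -0.048 and 0.087, where 14 of 34 were called higher and 1 lower. The mitochondrially encoded genes had -0.104 and 0.102, with 4 of 13 called higher and 0 lower in the others. Without sodium butyrate and trichostatin A, 27 of the 31 interferon genes and 7 of the 59 ribosomal genes were called higher in the other compounds and 0 lower in both lists. Whether a list differed between the 2 contrasts was not tested.

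**Figure D5:**
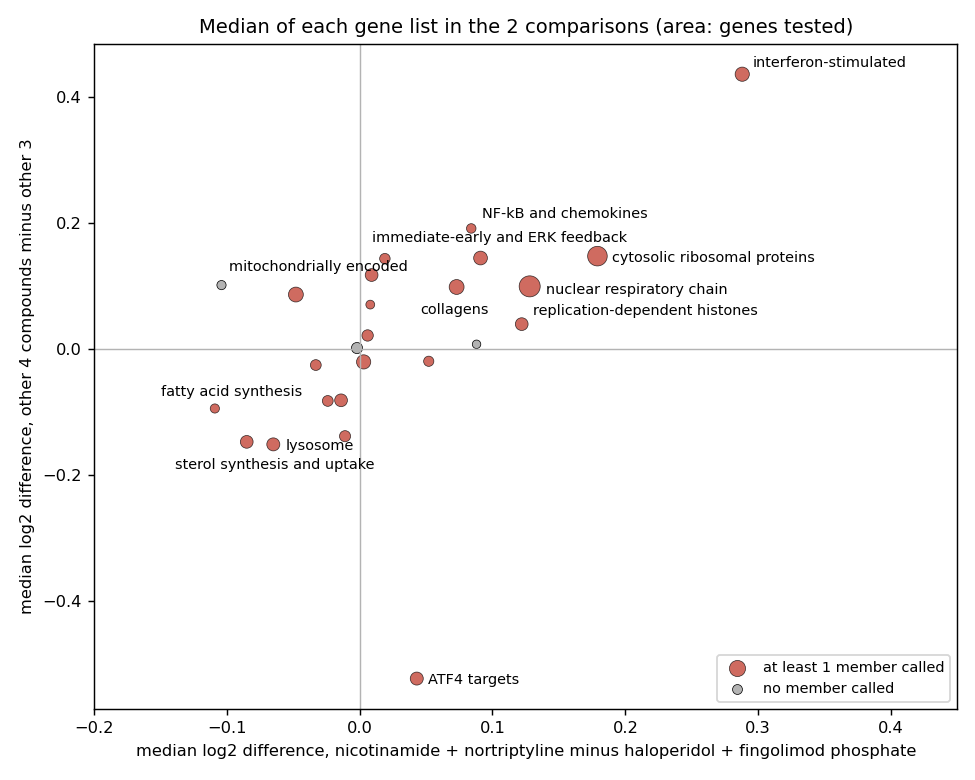
Each circle is a gene list with at least 10 genes tested, placed at its median log2 difference between the pools (horizontal) and in the other compounds of the same slots (vertical), with its area in proportion to the genes tested. Interferon-stimulated genes are highest in both, at 0.288 and 0.437, and ATF4 targets lie far below 0 only in the other compounds, at -0.523.

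Each compound was last set beside the 3 STHdhQ111 vehicle libraries, which all comparisons of this kind share and which were collected in neither slot set. Nicotinamide had 1396 called genes (10.4% of 13409), 378 higher (2.82%) and 1018 lower (7.59%), and nortriptyline had 513 (3.83%), 100 higher (0.746%) and 413 lower (3.08%). Haloperidol had 0 with limma and 397 at an unadjusted p under 0.05, and fingolimod phosphate had 8 (0.0597%), all lower, with 1404 at an unadjusted p under 0.05. Without replicate 1 of the vehicle the counts of nicotinamide and nortriptyline were 268 and 76, and without replicate 3 of the vehicle they were 2017 and 784. Lmbrd2, as an example, differed from vehicle by -0.66 with nicotinamide, -0.55 with nortriptyline, -0.18 with haloperidol and -0.28 with fingolimod phosphate, and Col3a1 by 0.35, 0.39, 0.05 and 0.03. Since these genes were called between the pools, the order of the compounds within them was in part fixed by that choice. Compound and slot cannot be told apart here either, since each compound was collected in a single slot set.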

How the data were processed

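RNA was sequenced from 48 libraries of mouse striatal cells, and groups, doses, days and times were taken from the labels. Per the submitters' processing notes and the study's methods, the authors used Trimmomatic 0.36 for trimming, RSEM with GRCm38.p5 for quantification and DESeq2 for normalization and testing. The deposited table holds normalized log2 values per gene, and its transformation is not given in the sources used here. Counts could not be recovered and depth is unknown, so no count model was used. Some low genes hardly varied among the 12 libraries, such as Ppp1r1b at 1.80 to 1.98, while Crabp1 ran from 3.41 to 6.76. Differences of low genes may be understated.

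Genes with a symbol and a mean of at least 1 were tested (13409 of 18178 with a symbol, in 27281 rows). With limma 3.58.1 in R 4.3.3, 1 linear model held 16 condition terms and the collection days of all 48 libraries (trended moderated variances, 30 residual degrees of freedom). The median residual SD was 0.086. P-values were two-sided and adjusted within each comparison. The procedure was tested on simulated data. Positions, lengths (longest transcript) and GC came from GENCODE annotation of GRCm38. Named genes were the 12 largest rises and falls under the rule given with the results, up to 4 called genes from each list (or the gene with the largest difference where none was called), tested genes tied to the compounds, and Htt. The 4 compounds, the comparisons and the gene lists were chosen with earlier results of these data known. Same-numbered libraries of the 4 compounds were not treated as pairs beyond the collection day, which in these 12 libraries is the replicate number. In 0 of 6 pairs of compounds was the mean correlation of deviations of same-numbered libraries over 0.1, and the lowest was -0.299. Since the model held the day, these correlations do not show whether same-numbered libraries were related. Alternatives covered the fit, the filter, the scaling, single libraries, and gene length with GC. Figures were drawn with matplotlib 3.10.9. A few genes that the rule names are not reported here.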

Additional observations from a re-analysis of the deposited data

Results flagged for a closer look

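Within the pools of 6 libraries, the called genes named by the rule were searched for a library whose gap to its nearest neighbour was large for the range of its pool (Dixon's test at 95%). Of 158 pools of 79 genes, 9 had such a library, and chance flags about 1 in 20. In 5 of them the library was replicate 2 of nicotinamide, which was lowest for Lmbrd2 (7.63, the others at 7.89 to 7.99), Lnpep (7.89, the others at 8.11 to 8.22), Alg10b (9.56, the others at 9.79 to 9.83), Canx (12.34, the others at 12.46 to 12.52) and Rb1cc1 (10.02, the others at 10.23 to 10.31). Replicate 3 of fingolimod phosphate was highest for Ly6a (8.24, the others at 7.26 to 7.57) and Atp5j2 (10.67, the others at 10.29 to 10.40). Replicate 2 of haloperidol was highest for Sqle (11.81, the others at 11.63 to 11.65), and replicate 2 of nortriptyline for Acaca (10.64, the others at 10.45 to 10.51). The causes were not tested.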

How the results depend on the processing

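Counts of genes called by limma moved with the filter, the samples fitted and single libraries, always with the same definition of a call, and the causes were not tested. In the order of the settings, fitting only the samples compared gave 2493 genes between the pools, 934 for nicotinamide minus fingolimod phosphate, 652 for nortriptyline minus haloperidol, 2 for nortriptyline minus fingolimod phosphate and 5 for nicotinamide minus nortriptyline, and 217, 1 and 592 for nortriptyline, haloperidol and fingolimod phosphate against vehicle. A minimum mean of 10 gave 543 between the pools, 462 for nicotinamide minus haloperidol, 86 for nortriptyline minus haloperidol, 1010 for the other compounds and 1 for the slot set by day, and 523, 223 and 42 for nicotinamide, nortriptyline and fingolimod phosphate against vehicle. Fewer genes enter under that minimum. No minimum mean gave 84 for nortriptyline minus haloperidol, 1 for nicotinamide minus nortriptyline, and 1 and 5 for haloperidol and fingolimod phosphate against vehicle. With the collection time added, nicotinamide minus fingolimod phosphate had 132, nortriptyline minus haloperidol 16 and fingolimod phosphate against vehicle 5. Median-of-ratios rescaling gave 18 for fingolimod phosphate against vehicle, and moved the share of higher calls between the pools from 40.9% to 35.1%. Between the pools, 5 genes were called without nicotinamide, 144 without haloperidol and 641 with the length and GC trend removed.

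Leaving out 1 library at a time gave 509 to 1817 genes between the pools, 48 to 1210 for nicotinamide minus haloperidol, 0 to 397 for nicotinamide minus fingolimod phosphate, 0 to 232 for nortriptyline minus haloperidol, 0 to 1 for nortriptyline minus fingolimod phosphate, 0 to 41 for haloperidol minus fingolimod phosphate and 0 to 99 for the slot set by day. The ranges against vehicle were 268 to 2017 for nicotinamide, 76 to 784 for nortriptyline, 0 to 34 for haloperidol and 0 to 135 for fingolimod phosphate. Of 79 named genes called between the pools, 36 to 74 stayed called when 1 library was left out and 39 with the length and GC trend removed, and none changed sign.

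The replicate number in place of the day as a replicate block gave 1502 genes between the pools, and no replicate block of either kind gave 1767. Without it nortriptyline minus haloperidol had 241 and fingolimod phosphate against vehicle 67. The numbers did not pair the libraries. Depth is unknown, so its effect on these counts could not be examined.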

Other observations

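Some gene lists not described above had few calls between the pools. Over all genes tested, 4.47% were called higher and 6.45% lower, and most counts here were near those shares. Of 31 genes of glycolysis and hypoxia, 1 rose and 2 fell. Adm, the vasodilator peptide adrenomedullin, was at 6.43 to 6.56 with nicotinamide and nortriptyline and at 6.23 to 6.39 with haloperidol and fingolimod phosphate, and rose by 0.19 (standard error 0.054, adjusted p = 0.0211, limma). Ero1l, an oxidase for disulphide bonds, fell by 0.24 and Bnip3l, a mitophagy receptor, by 0.13. The pools overlapped in none of Adm, Ero1l and Bnip3l. Over all genes tested, they lay apart in 1.91% in the higher direction and in 3.48% in the lower. Of 20 cytosolic heat shock genes, Cryab rose by 0.25 (adjusted p = 0.0496, limma), and of 18 targets of NRF2, Me1 fell. Of 25 replication-dependent histone genes, whose mRNAs lack a poly(A) tail, 2 rose and 0 fell. When replicate 2 of haloperidol or replicate 2 of nicotinamide was left out, 0 histone genes and 0 heat shock genes were called. Penk, which encodes the striatal peptide enkephalin, rose by 0.17 at levels of 2.45 to 2.91. Of 19 p53 targets, 4 metallothionein and zinc genes and 11 snoRNA hosts and nuclear long RNAs, 0 were called.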
